A study of Mus musculus with 195 samples.

Results

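The 10 Wnt pathway genes Axin2, Lef1, Tcf7, Tcf7l1, T, Sp5, Cdx1, Cdx2, Nkd1 and Ctnnb1 were followed in mouse embryonic stem cells (ESC) grown with and without CHIR99021, an inhibitor of the kinase GSK3. They were taken by name, with no threshold on a measured value, and matched to Ensembl identifiers through the GENCODE M21 annotation. The list holds 10 genes beside 19736 genes in the deposited gene table. The table had 9 of the 10, since Cdx2 was not among its rows. The measurements come from BATSeq, which tags each transcript molecule of a cell at its polyadenylated 3′ end with a molecular barcode and maps that end in the genome. A value is therefore a number of molecules, and because each transcript is counted once at its end, no correction for length was made. Loss of molecules at capture or in the alignment filters may differ between genes and was not tested. An order of genes by level is therefore an order of counted molecules.

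All cells derive from the 46C line, which carries a Sox1-GFP reporter and goes back to E14tg2a ES cells. ESC-2i cells were grown without serum in N2 and B27 medium with LIF (10 ng/ml), CHIR99021 (3 μM) and PD0325901 (1 μM), an inhibitor of the ERK-activating kinase MEK. ESC-FCS cells were grown in 10% serum with LIF (10 ng/ml) and neither inhibitor. The media thus differed in both inhibitors, in serum and in supplements, so an effect of CHIR99021 alone cannot be told apart from these. Neural stem cells (NSC) were made from the same line by monolayer differentiation, sorting of the Sox1-GFP+ fraction and culture on laminin with EGF and bFGF. Small cells with the DNA content of G1 were sorted by Hoechst stain and scatter. There were 48 single cells of each of the 3 populations, 48 further single ESC-FCS cells (control cells), 1 pool of 48 ESC-FCS cells and 2 pools of 48 ESC-2i cells. The study made the control cells and the ESC-FCS pool on one day, so these share a day and are not independent sets of ESC-FCS. The ESC-2i pools were lysed in RLT buffer and their RNA was purified on beads, whereas the labels give direct lysis in detergent for the ESC-FCS pool and for all single cells. Medium and extraction therefore cannot be told apart in the pools, and in a pool fewer cells that express a gene and less RNA per cell cannot be told apart either. Nothing in the labels separates cultures within a population, so no p-value is given between populations, and every 95% interval covers counting error only.

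In the canonical Wnt pathway, a complex built on APC and the Axin proteins lets GSK3 mark beta-catenin for destruction. When GSK3 is blocked, beta-catenin persists, enters the nucleus and binds the TCF/LEF proteins at their DNA sites. In ESC, Tcf7l1 acts mainly as a repressor of pluripotency genes, and its relief by beta-catenin is known as one way in which GSK3 inhibition sustains self-renewal, while Axin2, Nkd1, Sp5, Cdx1 and T are commonly used as transcriptional readouts of the pathway.

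The gene table held 33 ESC-2i, 33 ESC-FCS and 41 NSC cells with 368362, 226683 and 151877 molecules on genes (median per cell 10864, 6375 and 3282). The 48 control cells held 225537 molecules, the ESC-FCS pool 179155, and the ESC-2i pools 479483 and 494799. Levels are given as molecules per 1000000 molecules on genes (CPM), so that 3 molecules, the limit that a count of 0 allows, stand for 8.14 CPM in ESC-2i cells, 13.2 in ESC-FCS cells, 19.8 in NSC, 16.7 in the ESC-FCS pool and 6.06 to 6.26 in each ESC-2i pool. All 24 cell barcodes recurred in each of the 8 single-cell library batches, and 5 of 6 batch barcodes were used by more than 1 library. The 10 ESC markers (among them Nanog, Esrrb and Sox2) summed to between 2606 and 4058 CPM in the ESC libraries and to 125 in NSC. The 10 neural stem markers summed to 5109 in NSC and to between 128 and 521 in ESC. The sums thus went with the labels, but not every single marker did. Fabp7 alone gave 2476 CPM in NSC, whereas Pax6 and Id4 had 0 molecules there and some in ESC. Pou5f1 was at 8.87 CPM in the control cells and 0 in the ESC-FCS pool, and Dppa5a was at 0 in every pool. Of 5 fibroblast markers, Thy1 and Dcn had no molecule anywhere and the others summed to at most 13.2 CPM, the value in NSC. Over genes with at least 20 molecules in a pair of libraries, 53.8% differed at least 2-fold either way between the ESC-2i pools and the ESC-2i cells, 33.7% between the ESC-FCS pool and the ESC-FCS cells, and 25.1% between the control cells and the ESC-FCS cells, which share a medium.

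Ctnnb1, which encodes beta-catenin itself, was by far the most abundant of the 10. It lies on chromosome 9 (GRCm38, 120929216 to 120960507, plus strand), and 99.4% of its 2578 molecules ended at 1 position in its 3′ UTR, 4 nt before the annotated end of the gene. The 30 bases up to this site, read from the GENCODE M21 transcripts, are shown with those of Tcf7l1 and Axin2 because most molecules counted for these genes rest on these ends, with the polyadenylation hexamer AATAAA or ATTAAA in capitals.
Ctnnb1, chr9:120960474-120960503, plus strand: gaaatggttcagaATTAAActtttaattca
Tcf7l1, chr6:72626382-72626411, minus strand: attttcacaagagaaAATAAAattacagtt
Axin2, chr11:108950747-108950776, plus strand: agatgtagcctttATTAAAattttatattt
Of 10314 genes whose main site held at least 5 molecules in a last exon, 67.1% had AATAAA and 17.8% ATTAAA in this window of 30 bases, and 17.4% had neither. The main end of Sp5 (109 molecules), which is not printed, also had neither.

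Ctnnb1 stood at 717 CPM in ESC-2i cells (264 molecules, 95% interval 633 to 809), 750 in ESC-FCS cells (170 molecules, 641 to 871) and 961 in NSC (146 molecules, 812 to 1130). The level was 736 in the control cells, 731 in the ESC-FCS pool, and 1733 and 1758 in the ESC-2i pools. The 3 ESC-FCS library sets thus lay within 731 to 750, the ESC-2i cells lay just below that range, and both ESC-2i pools stood far above it. The ratio of ESC-2i over ESC-FCS was 0.956 in cells (0.785 to 1.17), an interval that stayed within 2-fold in both directions, and 2.39 in the pools (2.00 to 2.87). Between the ESC-2i pools and the ESC-2i cells, which share a medium, the ratio was 2.44 (2.14 to 2.78). In NSC the level was 1.34 times that of ESC-2i cells (1.09 to 1.65) and 1.28 times that of ESC-FCS cells (1.02 to 1.61). Ctnnb1 ranked 155th among 15399 genes with a molecule in ESC-2i cells, 141st among 14316 in ESC-FCS cells and 22nd among 16967 in the ESC-2i pools.

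**Figure D1:**
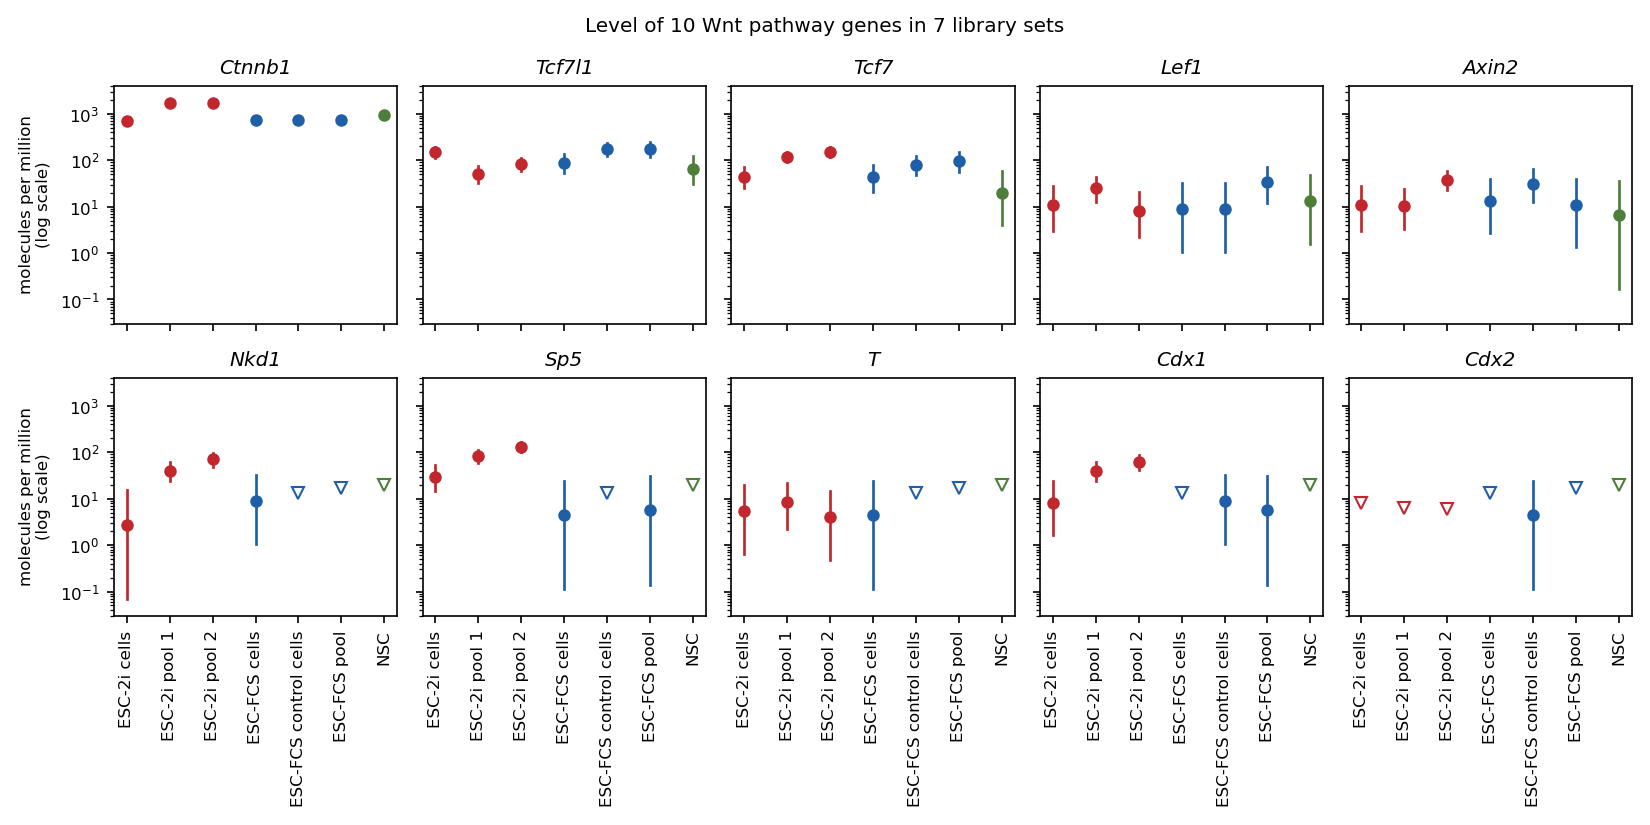
Level of each of the 10 genes in CPM (log scale) in 7 library sets, with red for ESC-2i, blue for ESC-FCS and green for NSC. Points give the level with its 95% Poisson interval, and open triangles mark the limit of 3 molecules where none was found. Sp5 is the only gene whose 3 red points all lie above the blue ones.

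Tcf7l1, the repressive TCF of ESC, lies on chromosome 6 (72626378 to 72789254, minus strand), and 92.3% of its 221 molecules ended at the site printed above. In single cells it was at 152 CPM in ESC-2i (56 molecules, 115 to 197), 88.2 in ESC-FCS (20 molecules, 53.9 to 136) and 65.8 in NSC (10 molecules, 31.6 to 121). The control cells gave 173 (39 molecules, 123 to 236), the ESC-FCS pool 173 (31 molecules, 118 to 246), and the ESC-2i pools 50.1 (24 molecules) and 82.9 (41 molecules). The ESC-2i cells thus stood above the ESC-FCS cells but below the control cells and the ESC-FCS pool, and the ESC-2i pools were below all ESC-FCS library sets. The ratio of ESC-2i over ESC-FCS was 1.72 in cells (1.02 to 3.03), with each of the 4 pairs of library batches in that direction (126 and 175 CPM against 62.2 and 108), and 0.386 in the pools (0.248 to 0.612). Scaled to ERCC spike-in molecules, the ratio in cells turned to 0.836, and against the control cells it was 0.879 (0.574 to 1.36). Control cells and ESC-FCS cells, of one medium, differed by 1.96 times (1.12 to 3.55), so the ratio of 1.72 was no larger than the difference between these ESC-FCS libraries.

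Tcf7, which encodes TCF1, a TCF commonly linked to activation, lies on chromosome 11 (52252371 to 52283014, minus strand). It was at 43.4 CPM in ESC-2i cells (16 molecules) and 44.1 in ESC-FCS cells (10 molecules), with a ratio of 0.985 (0.420 to 2.43), and at 19.8 in NSC (3 molecules). The control cells stood at 79.8 (18 molecules), the ESC-FCS pool at 94.9 (17 molecules) and the ESC-2i pools at 119 (57 molecules) and 152 (75 molecules). The pools were therefore the highest and second highest libraries, but the ESC-2i cells were the lowest of the ESC. The pool ratio was 1.43 (0.859 to 2.52). Of its 196 molecules, 82.7% ended 81 nt beyond the annotated end of the gene, a stretch that a long noncoding gene, Gm26551, also spans on the same strand. A further 23 molecules lay 5555 to 6299 nt downstream, within the 3′ UTR of Skp1a on the opposite strand. Of these, 22 came from the ESC-2i pools, 1 from the ESC-2i cells and 0 from the ESC-FCS libraries or NSC. Without them the pool ratio was 1.19 (0.710 to 2.12).

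Lef1, a further TCF/LEF factor and a Wnt target in many tissues, lies on chromosome 3 (131110471 to 131224356, plus strand) and had 32 molecules in all. Its level was 10.9 CPM in ESC-2i cells (4 molecules), 8.82 in ESC-FCS cells (2 molecules), 13.2 in NSC (2 molecules) and 8.87 in the control cells (2 molecules). It was 33.5 in the ESC-FCS pool (6 molecules) and 25.0 (12 molecules) and 8.08 (4 molecules) in the ESC-2i pools, so that the groups overlapped. The pool ratio was 0.490 (0.182 to 1.53). Of its molecules, 17 ended 9140 to 9554 nt downstream of the annotated end, inside the 3′ UTR of Hadh on the opposite strand, and all 17 came from ESC-2i libraries (2 from the cells, 11 and 4 from the pools). The study's gene assignment reached a long way downstream of annotated ends, and the deposited counts include them. With sites at most 2000 nt downstream, 1 molecule was left in the ESC-2i pools against 6 in the ESC-FCS pool (ratio 0.0306, 0.000666 to 0.253), and 3 in all ESC-2i libraries against 10 in all ESC-FCS libraries (2.23 against 15.8 CPM, ratio 0.141, 0.0250 to 0.548). Strand of origin at these positions, and so the gene they belong to, was not tested.

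**Figure D2:**
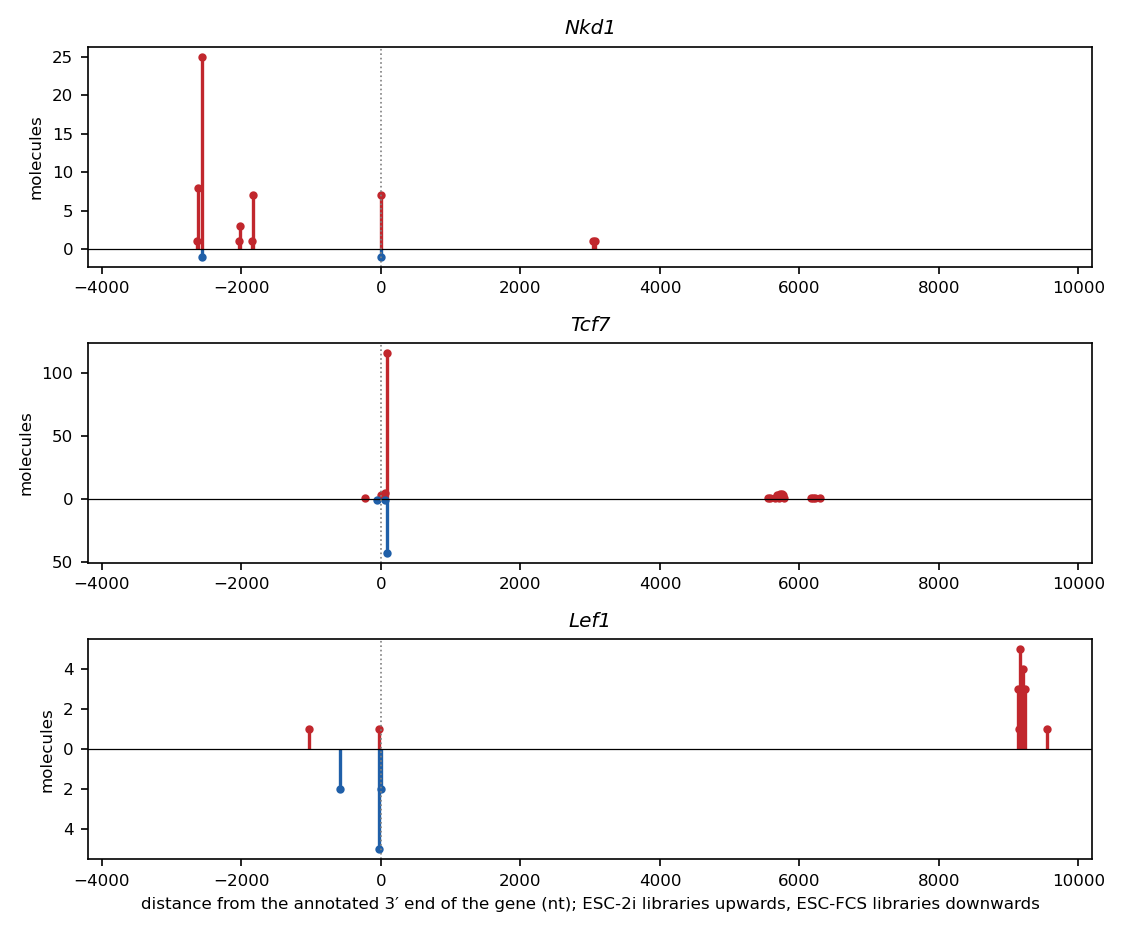
Molecules of Nkd1, Tcf7 and Lef1 by the distance of their polyadenylation site from the annotated 3′ end of the gene in nt, with ESC-2i libraries drawn upwards and ESC-FCS libraries downwards. All molecules of Tcf7 and Lef1 beyond 2000 nt, 23 and 17, came from ESC-2i libraries.

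Axin2 and Nkd1 encode feedback inhibitors, Axin2 as a scaffold of the destruction complex and Nkd1 as a binder of Dishevelled. Axin2 (chromosome 11, 108920349 to 108950783, plus strand) had 4 molecules in ESC-2i cells, 3 in ESC-FCS cells and 1 in NSC, or 10.9, 13.2 and 6.58 CPM. The control cells held 7 molecules (31.0 CPM), the ESC-FCS pool 2 (11.2), and the ESC-2i pools 5 and 19 (10.4 and 38.4). The 2 ESC-2i pools differed from each other by 3.68 times (1.33 to 12.6), and the groups overlapped. The ratio of ESC-2i over ESC-FCS was 0.821 in cells (0.139 to 5.60), 2.21 in the pools (0.548 to 19.3) and 1.10 over all libraries of each medium (28 against 12 molecules, 0.540 to 2.37). A 2-fold difference in Axin2 was thus not detectable at this depth. The pool ratio was below 1 in reads (0.512) and without pool 2 (0.934).

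Nkd1 (chromosome 8, 88521354 to 88594884, plus strand) was seen mainly in the ESC-2i pools. They held 19 and 35 molecules (39.6 and 70.7 CPM, 23.9 to 61.9 and 49.3 to 98.4), against 1 in ESC-2i cells (2.71 CPM), 2 in ESC-FCS cells (8.82) and 0 in the control cells, the ESC-FCS pool and NSC. Both pools stood above every other library set, including the cells of the same medium. Counting the ESC-FCS pool at the limit of 3 molecules, the level was 3.31-fold higher in the ESC-2i pools. The lower end of the 95% interval of the ratio was 2.60. The pools also exceeded the ESC-2i cells, by 20.4 times (3.51 to 821), so the difference went with the kind of library as much as with the medium. The 57 molecules ended at 10 positions rather than 1, of which 4 held at least 5 molecules. They lay in the 3′ UTR, with 26 molecules at position 88592321, 8 at 88592260, 7 at 88593049 and 8 at 88594880, 4 nt before the annotated end. The first and the last are printed because they stand for a short and a long end of the transcript. Only the long one has AATAAA or ATTAAA (capitals) in the 30 bases, and variant hexamers were not searched.
Nkd1 short end, chr8:88592292-88592321, plus strand: acacatggaaacacagaagtaaacttttat
Nkd1 long end, chr8:88594851-88594880, plus strand: gtcttcattcccggAATAAAagcattttta
The short end lay 16 nt from the end of an annotated transcript.

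Sp5, a zinc finger factor of the Sp family that is itself induced by beta-catenin in many cell types, had the largest ratio between the media of the 10 genes over all libraries. It lies on chromosome 2 (70474923 to 70477729, plus strand), and 92.4% of its 118 molecules ended 7 nt before its annotated end. It was at 29.9 CPM in ESC-2i cells (11 molecules, 14.9 to 53.4) and at 83.4 (40 molecules, 59.6 to 114) and 131 (65 molecules, 101 to 167) in the ESC-2i pools. The ESC-FCS cells held 1 molecule (4.41 CPM), the ESC-FCS pool 1 (5.58), and the control cells and NSC 0. All 3 ESC-2i library sets were above all 3 ESC-FCS sets, with the lowest of the former at 29.9 and the highest of the latter at 5.58. The ratio was 6.77 in cells (0.984 to 291), 19.3 in the pools (3.39 to 770) and 27.3 over all libraries (116 against 2 molecules, 7.38 to 228). With a single molecule in ESC-FCS cells, the cell ratio moved to 1.77 as a mean of single-cell levels, 2.88 without ESC-FCS batch 1, 3.29 per ERCC molecule and 10.4 in reads, and it had no finite value without ESC-FCS batch 2. The ESC-2i pools were also 3.61 times above the ESC-2i cells (1.94 to 7.45), and pool 2 was 1.57 times above pool 1 (1.05 to 2.40).

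The promoters were searched for the TCF/LEF letters CTTTG followed by any pair made of A or T, on both strands. Sp5 and T are shown because both had a match in the 250 bases before their only RefSeq start (GRCm38.p6). Matches are in capitals, and a match on the minus strand appears as its reverse complement.
Sp5, chr2:70474673-70474922, plus strand: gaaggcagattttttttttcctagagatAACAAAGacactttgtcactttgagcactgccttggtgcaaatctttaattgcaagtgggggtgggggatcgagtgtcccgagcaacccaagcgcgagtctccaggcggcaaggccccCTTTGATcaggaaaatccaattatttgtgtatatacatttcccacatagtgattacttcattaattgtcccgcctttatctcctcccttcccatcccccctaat
T, chr17:8434173-8434422, plus strand: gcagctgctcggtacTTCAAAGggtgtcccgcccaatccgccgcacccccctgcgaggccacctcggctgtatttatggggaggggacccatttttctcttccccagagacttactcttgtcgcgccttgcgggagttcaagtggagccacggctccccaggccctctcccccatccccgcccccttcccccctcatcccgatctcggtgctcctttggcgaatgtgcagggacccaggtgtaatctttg
Sp5 had a match starting 222 bases and another 104 bases before the start, and T had 1 match at 235 bases. Of 32851 mouse promoters of this length, 14.8% held at least 1 match and 1.43% at least 2. Of the 9 genes with a promoter in the table, Lef1 had 1 match at 1 of its starts, and Axin2, Tcf7, Tcf7l1, Nkd1, Ctnnb1 and Cdx2 had none in these 250 bases.

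T, or brachyury, the T-box factor of the primitive streak, is on chromosome 17 (8434423 to 8442496, plus strand) and had 9 molecules in all. There were 2 in ESC-2i cells (5.43 CPM), 4 and 2 in the ESC-2i pools (8.34 and 4.04), 1 in ESC-FCS cells (4.41) and 0 in the control cells, the ESC-FCS pool and NSC. Every level lay under the limits of a count of 0 in the ESC-FCS control cells (13.3 CPM) and the ESC-FCS pool (16.7), so a difference was not detectable. Over all libraries the ratio was 3.76 on 8 against 1 molecule (0.504 to 167).

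Cdx1 and Cdx2 encode caudal-type homeobox factors of the posterior embryo, and Cdx2 is also the defining factor of trophoblast. Cdx1 is on chromosome 18 (61018862 to 61036199, minus strand), and 94.5% of its 55 molecules ended 3 nt before the annotated end. It had 19 and 30 molecules in the ESC-2i pools (39.6 and 60.6 CPM, 23.9 to 61.9 and 40.9 to 86.5) and 1 in the ESC-FCS pool (5.58), a ratio of 9.01 (1.54 to 363). In single cells it was near the limit of detection, with 3 molecules in ESC-2i (8.14 CPM), 0 in ESC-FCS, 2 in the control cells (8.87) and 0 in NSC. Because the control cells stood at 8.87, the ESC-2i and ESC-FCS sets overlapped by a single pair of values. Over all libraries the ratio was 8.15 (52 against 3 molecules, 2.64 to 40.8), and between ESC-2i pools and ESC-2i cells it was 6.18 (1.99 to 31.0). Cdx2 had 1 molecule in the series, in a control cell and 10617 nt downstream of its gene, and 0 in 1342644 molecules of all ESC-2i libraries, which allows up to 2.23 CPM.

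Read as counts, 3 of the 10 genes (Ctnnb1, Tcf7 and Tcf7l1) had 20 or more molecules in the ESC-2i and ESC-FCS cells together, and none of the 3 differed 2-fold. Among all 5007 such genes, 14.5% were at least 2-fold higher in ESC-2i cells and 8.17% at least 2-fold lower. The median log2 ratio was -0.02 over the 3 genes and 0.07 over the 5007. In the pools, 8 genes had at least 20 molecules. Of these, 5 were at least 2-fold higher in ESC-2i (Sp5, Nkd1, Cdx1, Ctnnb1 and Axin2), where the share of all 8013 genes was 34.5%, and 2 were at least 2-fold lower (Tcf7l1 and Lef1), where the share was 19.4%. The median log2 ratio was 1.20 over the 8 genes, with Nkd1 also at its limit, and 0.37 over all. When the 3 ESC-2i library sets were set against the 3 ESC-FCS sets, 1 gene of the 8 (Sp5) was higher throughout, against 14.6% of 9733 genes (the control cells and the ESC-FCS pool counted as separate sets, although made on one day), and 0 were lower throughout, against 8.50% of those genes. The share of 1 in 8 is near that background.

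**Figure D3:**
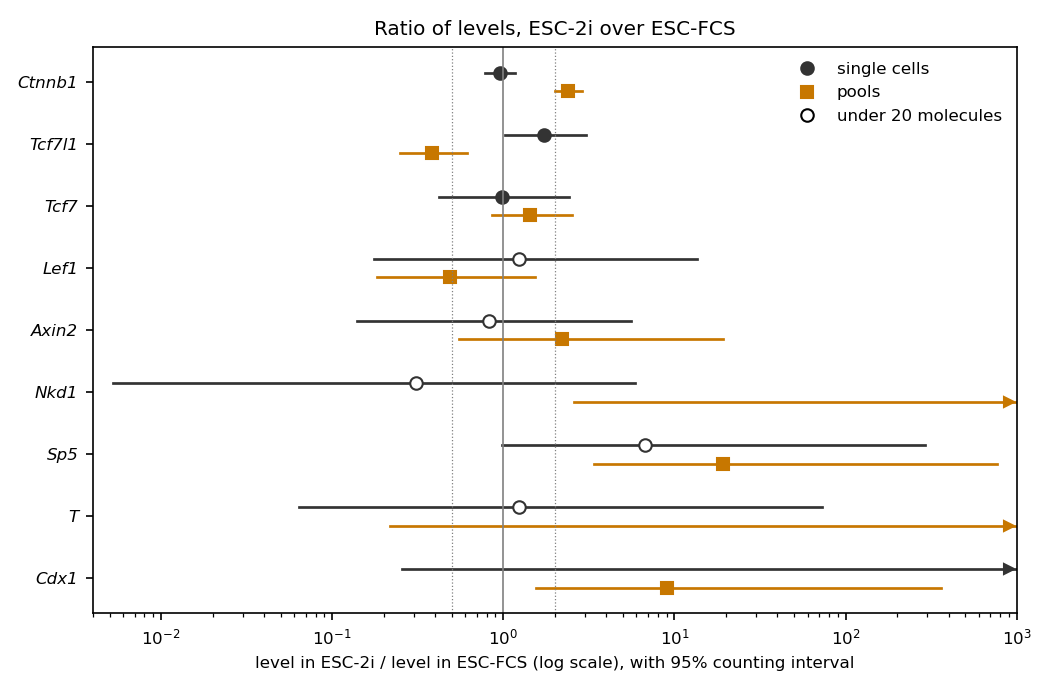
Ratio of the level in ESC-2i over ESC-FCS (log scale) for each gene in single cells (circles) and in the pools (squares), with 95% counting intervals. Arrows mark intervals without an upper end, open symbols fewer than 20 molecules, and dotted lines a 2-fold difference. Cdx2 had no molecule in these libraries and is not drawn. Ctnnb1 and Tcf7l1 have intervals in cells and pools that do not overlap, on opposite sides of 1 for Tcf7l1.

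**Figure D4:**
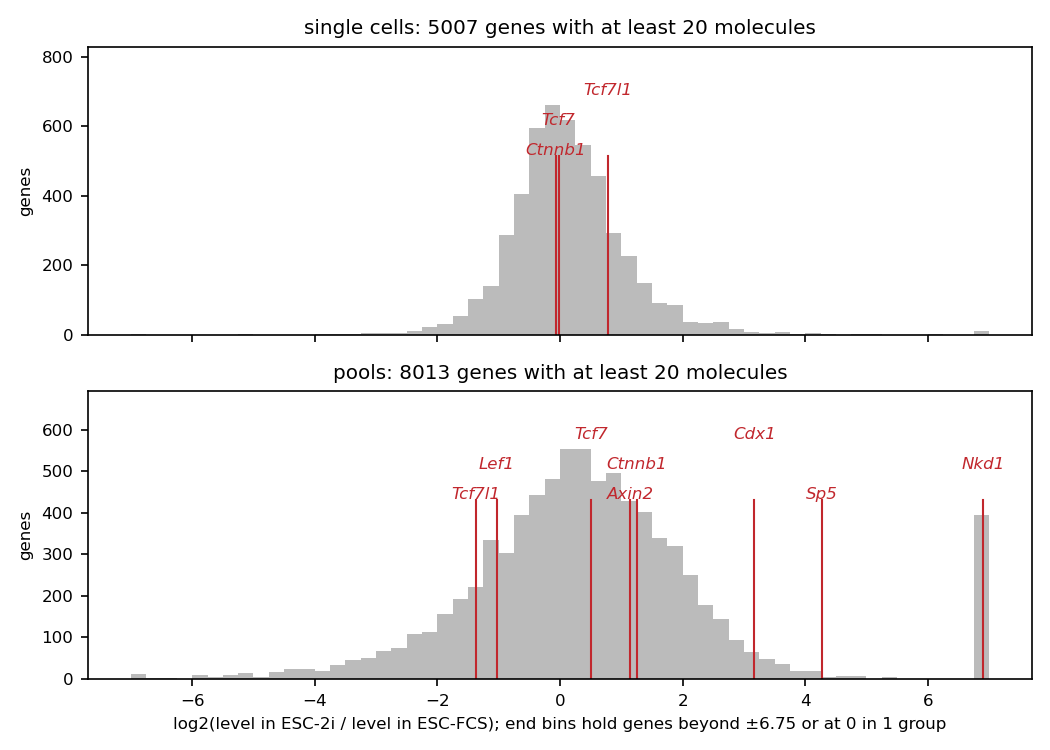
Distribution of the log2 ratio of ESC-2i over ESC-FCS over all genes with at least 20 molecules, 5007 in single cells (top) and 8013 in the pools (bottom), with red lines at the listed genes that pass. The pools spread more widely than the cells, and Sp5 (4.27) and Nkd1 (0 molecules in ESC-FCS, drawn in the end bin) lie in the upper tail.

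In single cells, Ctnnb1 was found in 31 of 33 ESC-2i cells (93.9%, exact binomial interval 79.8 to 99.3), 31 of 33 ESC-FCS cells, 38 of 41 NSC and 38 of 42 control cells with at least 1000 molecules. Its level per 10000 molecules of a cell ran from 0 through a median of 7.36 to 15.9 in ESC-2i cells, and from 0 through 7.14 to 18.0 in ESC-FCS cells. The 2 populations covered the same range. Given each cell's depth, the spread of its counts was 1.83 times that of Poisson counting in ESC-2i cells, 1.08 times in ESC-FCS cells and 1.15 times in NSC. The 2 library batches of ESC-2i cells stood at 568 and 851 CPM (99 and 165 molecules), and those of ESC-FCS cells at 806 and 674.

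Tcf7l1 was found in 27 of 33 ESC-2i cells (81.8%, 64.5 to 93.0), 13 of 33 ESC-FCS cells (39.4%, 22.9 to 57.9), 7 of 41 NSC (17.1%, 7.15 to 32.1) and 19 of 42 control cells (45.2%, 29.8 to 61.3). ESC-2i cells were also the deepest, at a median of 10864 molecules against 6375 and 3282. Thinned to 1000 molecules a cell, the expected shares were 13.8%, 8.81%, 5.84% and 12.8%. At equal depth ESC-2i and control cells were therefore nearly level, and the gap between ESC-2i and ESC-FCS cells was narrower than in the raw shares. No cell held more than 7 molecules.

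The rarer genes were met in few cells. The 11 molecules of Sp5 in ESC-2i came from 6 of 33 cells (18.2%, 6.98 to 35.5), and 5 of them from 1 cell, the deepest of the population at 21050 molecules. Sp5 was seen in 1 of 33 ESC-FCS cells, and in 0 of 41 NSC, which allows up to 7.32% of cells with a molecule. Thinned to 1000 molecules, the shares were 2.30% in ESC-2i and 1.35% in ESC-FCS, the latter from 1 molecule. Thinned to 3000 molecules, which 33 ESC-2i and 26 ESC-FCS cells reached, they were 6.4% and 0%. The ESC-FCS cell with the molecule was not among the 26. Tcf7 was seen in 14 of 33 ESC-2i and 9 of 33 ESC-FCS cells (thinned, 4.30% and 4.92%). Axin2, Lef1, Cdx1, T and Nkd1 were each seen in 1 to 4 ESC-2i cells and in 0 to 2 ESC-FCS cells, with at most 2 molecules in a cell.

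**Figure D5:**
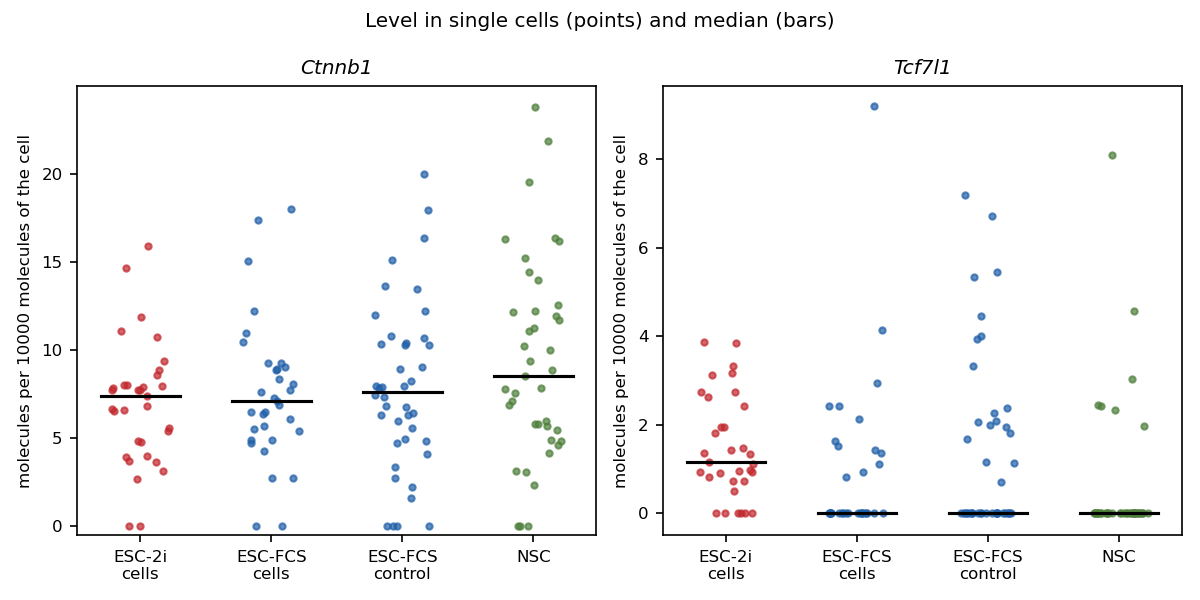
Molecules of Ctnnb1 and Tcf7l1 per 10000 molecules of each single cell (points) in 4 populations, with the median as a bar. Ctnnb1 has like medians (7.36 in ESC-2i, 7.14 in ESC-FCS, 8.54 in NSC), and for Tcf7l1 only ESC-2i has a median above 0 (1.14).

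In NSC, grown with neither inhibitor, 5 of the 10 genes (Sp5, Cdx1, Cdx2, T and Nkd1) had 0 molecules, with a limit of 19.8 CPM. Of the genes seen, Ctnnb1 was at 961, Tcf7l1 at 65.8, Tcf7 at 19.8, Lef1 at 13.2 and Axin2 at 6.58 CPM. Tcf7l1 was 2.31 times lower than in ESC-2i cells (1.17 to 5.08), and its difference from ESC-FCS cells was within counting error (ratio 0.746, 0.312 to 1.67). Sp5 at 29.9 in ESC-2i cells lay above the NSC limit, whereas Cdx1, T and Nkd1 in ESC-2i cells lay below it.

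By level, the order in ESC-2i cells was Ctnnb1, Tcf7l1, Tcf7 (43.4) and Sp5 (29.9), then Axin2 and Lef1 (10.9 each), Cdx1 (8.14), T (5.43) and Nkd1 (2.71), and in ESC-FCS cells Ctnnb1, Tcf7l1, Tcf7 (44.1), Axin2 (13.2), Lef1 and Nkd1 (8.82 each), and Sp5 and T (4.41 each). In ESC-2i cells the intervals of Ctnnb1, Tcf7l1 and Tcf7 lay apart from each other, in ESC-FCS cells only that of Ctnnb1 lay apart, and all other neighbours overlapped. In the ESC-2i pools together Ctnnb1 (1746) was followed by Tcf7 (135), Sp5 (108), Tcf7l1 (66.7), Nkd1 (55.4), Cdx1 (50.3), Axin2 (24.6), Lef1 (16.4) and T (6.16). There Sp5 stood above Tcf7l1, with intervals of 88.2 to 130 and 51.5 to 85.0.

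Around these genes, the ligands and receptors of the pathway were too rare in single cells to be compared. Of 20 Wnt ligands and secretion genes, 16 had any molecule and 0 reached 20 in the ESC-2i and ESC-FCS cells together, with Wnt2b, Wnt3a, Wnt9b and Wnt11 at 0 in every library. Of 20 receptors, 1 reached it, Fzd5, with a ratio of 1.41 (0.548 to 4.04). In the pools, Wnt4 had 14 and 8 molecules in ESC-2i against 0, or 22.6 CPM against a limit of 16.7, which does not reach 2-fold. Of 7 receptors with 20 molecules in the pools, 1 was at least 2-fold higher (Fzd10, 25 and 35 molecules against 1, ratio 11.0, 1.91 to 443) and 1 lower (Lgr4, a receptor of R-spondins, 0.264, 0.134 to 0.535), where the shares of all genes were 34.5% and 19.4%. These 3 were named after their values were seen.

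Of 20 cytoplasmic components, 10 had 20 molecules in cells, of which 2 were at least 2-fold higher in ESC-2i (Dvl3 2.62, 0.853 to 10.7, and Dvl2 2.12, 1.24 to 3.81, which relay the receptor signal) and 0 lower, beside 14.5% and 8.17% of all genes. Btrc, a subunit of the ligase that marks beta-catenin for destruction, was at 1.72 (0.812 to 3.98). The 3 lowest ratios were those of Tnks2 (0.689), Axin1 (0.821) and Gsk3a (0.846), which encodes a target of CHIR99021. In the pools, 4 of 17 components were at least 2-fold higher and 3 lower, where the shares of all genes were 34.5% and 19.4%. There Dvl3 was at 3.21, Dvl2 at 0.688, Btrc at 4.57 (2.28 to 10.7), Tnks2 at 0.8003, Axin1 at 1.51 and Gsk3a at 2.12 (1.39 to 3.36), so that Dvl2, Axin1 and Gsk3a lay on the other side of 1 than in cells. Gsk3b, the other GSK3 gene of the list, was named after its values were seen. It had 9 molecules in ESC-2i cells and 4 in ESC-FCS cells, under the minimum, and a pool ratio of 0.294 (0.148 to 0.603), opposite to Gsk3a. Of 17 nuclear partners, 11 reached 20 molecules in cells, with 2 at least 2-fold higher and 1 lower, beside 14.5% and 8.17% of all genes. Bcl9 (3.49, 1.01 to 18.6), a co-activator of beta-catenin, and Aes (2.18, 1.34 to 3.68), a short Groucho-type co-repressor, were 2-fold higher and Ep300 (0.410, 0.165 to 0.976), an acetyltransferase, was 2-fold lower. Crebbp, a related acetyltransferase, was at 1.85 (0.802 to 4.75), Ctnnbip1, an inhibitor of beta-catenin binding to TCF, at 0.559 and Tle4, a Groucho-type co-repressor, at 0.583. In the pools, 4 of 13 were 2-fold higher and 4 lower, beside 34.5% and 19.4% of all genes. The pool ratios were 0.460 for Bcl9, 2.54 for Aes, 0.288 for Crebbp, 0.386 for Ep300, 0.644 for Ctnnbip1 and 0.326 for Tle4. Of 19 secreted and feedback inhibitors, Sfrp1 alone reached 20 molecules in cells. Its ratio was 3.25 in cells (1.43 to 8.65), where 14.5% of all genes were at least 2-fold higher, and 0.662 in the pools (0.237 to 2.28). In the pools 3 inhibitors reached 20 molecules, of which 1 was at least 2-fold higher and 1 lower, beside 34.5% and 19.4% of all genes. These, Notum and Sfrp2, were named after their values were seen. Notum, another secreted inhibitor and target, had 17 molecules in each ESC-2i pool against 1 in the ESC-FCS pool, a ratio of 6.25 (1.05 to 254). Sfrp2 had 8 and 10 molecules against 7, a ratio of 0.473 (0.188 to 1.34).

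Of 18 other genes known as Wnt targets in some tissue, 4 reached 20 molecules in cells. Of these, 1 was at least 2-fold higher in ESC-2i and 2 lower, beside 14.5% and 8.17% of all genes. In the pools, 4 of 7 were at least 2-fold higher and 3 lower, beside 34.5% and 19.4% of all genes. Ccnd3 was higher in ESC-2i (2.22 in cells, 1.53 to 3.31, and 2.59 in pools), Ccnd1 was at 1.34 and 3.54, Mycn was lower (0.308, 0.105 to 0.815, and 0.158 in pools), and Id2, a target of BMP signalling as well, was lowest (0.0684, 0.00769 to 0.286, and 0.0230 in pools). The 6 genes known as targets of Tcf7l1 repression all reached 20 molecules. In cells 2 were at least 2-fold higher and 0 lower, and in the pools 3 higher and 1 lower, beside the same shares of all genes. Tbx3 (5.10 in cells, 2.32 to 13.2, and 13.2 in pools), Tfcp2l1 (3.16, 2.40 to 4.21, and 2.98) and Nanog (1.56, 1.17 to 2.09, and 2.33) had ratios above 1 with intervals above 1 in both, Klf2 (1.02 and 1.77) and Nr0b1 (0.837 and 0.293) were not 2-fold higher in either, and Esrrb was at 1.31 in cells and 0.597 in pools. Against the control cells, Nanog was nearly level (466.9 CPM in ESC-2i cells and 465.6 in control cells), while Tfcp2l1 was at 863 and 279 and Tbx3 at 157 and 26.6. Of 7 junction partners of beta-catenin, 4 reached 20 molecules. In cells 1 was at least 2-fold higher and 0 lower, and in the pools 0 higher and 3 lower, beside the same shares of all genes. Jup was at 2.27 in cells (1.46 to 3.65) and 0.456 in pools, with 260.6 CPM in ESC-2i cells against 217 in the control cells. Ctnnd1 was at 1.16 and 0.499, Cdh1 at 1.05 and 0.418, and Ctnna1 at 1.17 and 0.982.

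Sums of markers of other lineages are given beside Sp5, T and Cdx1. None of the streak markers reached 20 molecules in ESC-2i and ESC-FCS cells together. The 9 primitive streak and mesoderm markers other than T summed to 70.6 CPM in ESC-2i cells and to 85.5 and 52.6 in the ESC-2i pools, against 4.41, 4.43 and 16.7 in the 3 ESC-FCS sets and 6.58 in NSC. Of the 9, 8 had a molecule, and Fgf8 was at 0. Named after their values were seen, Eomes had 10 molecules in ESC-2i cells and 0 in ESC-FCS cells, and Tbx6 and Gsc 5 and 0 each. Wnt3 had 4 and 0, Mixl1 2 and 1, and Evx1, Mesp1 and Lhx1 0 in both. Eomes was at 27.15 CPM in ESC-2i cells but 6.16 in the ESC-2i pools, and it is also in the trophoblast sum. The 7 trophoblast markers other than Cdx2 summed to 190 to 352 CPM in the ESC-2i sets and 66.2 to 207 in the ESC-FCS sets, which overlap, with Elf5, Krt7 and Hand1 at 0 in the single ESC. Tfap2c alone gave 323 CPM in the ESC-2i pools, 124 in the control cells and 156 in the ESC-FCS pool. Tfap2c (2.26) and Krt8 (6.15) reached 20 molecules in cells, where 14.5% of all genes were at least 2-fold higher. Krt8 was at 9.24 CPM in the ESC-2i pools against 22.3 in the ESC-FCS pool. Primitive endoderm markers summed to between 2.09 and 4.04 CPM in the ESC-2i sets. They summed to 26.5 in ESC-FCS cells, 0 in the control cells, 5.58 in the ESC-FCS pool and 26.3 in NSC, so the media overlapped. In ESC-FCS cells these were 5 molecules of Dab2 and 1 of Gata4. The part of such cells in the levels of Sp5, T and Cdx1 was not tested.

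The genes most alike to each of the 8 genes with at least 30 molecules were sought among 7067 or 7068 genes by Pearson's r over 11 libraries (8 single-cell batches and 3 pools), which share media, extraction and depth classes. Sp5 was most like Ngfr (r = 0.97), Arl14epl (0.97) and Lamp1 (0.96), and Cdx1 most like Ppp2r2c (0.97), Nckap1l (0.96) and Med26 (0.95). Nkd1 was most like Tnfrsf8 (0.97), C2cd2l and BC067074 (0.96 each). Ctnnb1 was most like Impdh1 (0.98), Rbm10 and March5 (0.96 each), and Tcf7 like Gse1, Gfm1 and Itga3 (0.93 each). For Tcf7l1 the closest was Mdm4 (0.90), for Lef1 Pole3 (0.90) and for Axin2 Pak1ip1 (0.91). No other of the 10 genes was among the 3 closest of any, and the values are a description without a test.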

How the data were processed

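The genes were listed by name, without a threshold on their values, but they and the other lists were chosen with earlier results of these data known. The deposited molecule counts (per gene for 107 single cells, and molecule and read counts per polyadenylation site for all 195 samples) were made by the authors. They kept reads with a run of terminal As, aligned them with GSNAP to GRCm38 plus ERCC sequences, removed A-rich and ambiguous alignments, extended genes downstream when assigning molecules, and merged near-identical barcodes and neighbouring sites. The labels' processing notes name HTSeq and R 3.0.2. Here, molecules were summed per library set (the gene table for the 3 main populations, sites other than antisense ones elsewhere) and divided by all molecules on genes. The table differed from summed sites in 4 of 2111752 entries. Intervals were exact Poisson, binomial or conditional binomial ones (scipy 1.17.1, numpy 2.4.6, pandas 2.3.3, Python 3.11.15). They were tested only on simulated Poisson counts, which have no spread between libraries. Chi-square per degree of freedom was 5.78 between the ESC-2i pools (7205 genes) and 4.15 between the control cells and the ESC-FCS pool (4073 genes). These libraries thus differed by more than the counting error that the intervals cover. A gene counted as 2-fold different needed 20 molecules in both groups together. All 10 genes are named, and from each list the 3 highest and 3 lowest cell ratios among genes with 20 molecules. Genes named outside this rule are marked. Sites within 12 nt were joined here. All 107 cell columns of the gene table were matched to labels. Thinned shares are hypergeometric expectations. No proteins are shown.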

Additional observations from a re-analysis of the deposited data

Results flagged for a closer look

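Tcf7l1 went in opposite directions in the 2 kinds of library. The level in ESC-2i over ESC-FCS was 1.72 in single cells, where both ESC-2i library batches lay above both ESC-FCS batches, and 0.386 in pools of 48 cells, where both ESC-2i pools lay below the ESC-FCS pool. The difference between the cell and the pool ratio was not tested, since the labels do not separate cultures within a medium. The ESC-FCS control cells (173 CPM) stood with the ESC-FCS pool (173) and not with the ESC-FCS cells (88.2). The control cells and the ESC-FCS pool were made on one day.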

How the results depend on the processing

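With ERCC molecules as the scale (31576 in ESC-2i and 9430 in ESC-FCS cells, 0 in the ESC-2i pools), the median log2 ratio of all genes in cells shifted from 0.07 to -0.98 and that of the 3 listed genes to -1.06, and 2 genes (Ctnnb1 and Tcf7) became 2-fold lower in ESC-2i. In cells, the count of genes 2-fold higher in ESC-2i was 1 with a minimum of 10 molecules (Sp5) or a fold of 1.5 (Tcf7l1), and 2 with no minimum (Sp5 and Cdx1), and the count 2-fold lower was 1 with no minimum (Nkd1). Without 1 library batch at a time the first count ran from 0 to 1, with Tcf7l1 2-fold higher without ESC-FCS batch 1, and the median from -0.17 to 0.69. In the pools, 3 genes were higher at a fold of 3, and without 1 pool at a time 3 to 5 were higher and 1 was lower. Without pool 2, Axin2 was lost by its ratio. Nkd1 was lost there only because its 19 molecules missed the minimum of 20, at 39.6 CPM in pool 1 against 0 in the ESC-FCS pool. The count 2-fold lower was 0 at a fold of 3 and 1 (Tcf7l1) with median-ratio size factors, a minimum of 50, sites at most 2000 nt downstream, or all ESC-FCS libraries in place of the pool (chosen after seeing the data). The Axin2 pool ratio turned to 0.512 in reads and ran from 0.934 to 3.44 without 1 pool at a time (0.934 without pool 2), and that of Lef1 to 1.04 against all ESC-FCS libraries. Genes higher in all 3 ESC-2i sets numbered 2 (Sp5 and Cdx1) with size factors or mean levels per cell, and 1 to 3 without 1 library, with Ctnnb1 and Cdx1 added without ESC-2i batch 1. Genes lower in all sets numbered 0 to 1 without 1 library (Axin2 without pool 2). Causes were not tested. Of 160 ratios of single genes recomputed, 146 stayed inside their interval, 11 left it and 3 called ones changed direction. Alternatives that left 0 ESC-FCS molecules gave no ratio. No paired analysis was possible because no result comes from a test. Depth limits Axin2, Lef1, T, Cdx1, Cdx2 and Nkd1 in single cells, each with at most 7 molecules in ESC-2i and ESC-FCS together.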
